A study of Mus musculus with 12 samples.

Results

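The exon bins described here are the inner bins of the genes that V6.5 mouse embryonic stem cells expressed most. An exon bin is a numbered piece of a gene: all annotated transcripts of the gene are laid over each other and cut wherever an exon of any transcript starts or ends. Genes were taken when they had a single Ensembl identifier, at least 3 bins and a parental mean of at least 5000 normalized read counts. Of these genes every bin was taken that was neither the lowest nor the highest bin number and that had a mean of at least 20 normalized read counts in both comparisons. The rule gave 16867 bins of 863 genes, out of 366995 bins of 36521 gene units. The members were thus chosen by measured levels, the parental gene mean and the bin mean, and neither by the ratios nor by the p-values of the bins. Of the 21813 inner bins of the 866 genes that passed the gene part of the rule, 4946 lay under the mean of 20.

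The study sequenced poly(A)-selected RNA of 3 groups with 4 libraries each. Parental V6.5 cells were the common control. Tet1kd and Tet2kd cells were V6.5 cells that had taken up a short hairpin RNA construct against Tet1 or Tet2, were kept under puromycin on a feeder layer and picked as single clones. No group carried a control hairpin, so effects of the hairpin, of the selection and of the clone cannot be told apart, and the number of clones behind the 4 libraries of a knockdown was not given in the sources used here. Where nothing states separate clones or cultures, the p-values measure the spread between these libraries, which may be technical.

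Pre-mRNA splicing joins exons, and cells can skip an exon, choose between splice sites, or start and end a transcript at other places, so that 1 gene gives several mRNAs. SR proteins and hnRNP proteins bind pre-mRNA and steer these choices. Tet1 and Tet2 oxidize 5-methylcytosine to 5-hydroxymethylcytosine, a base that in embryonic stem cells lies at promoters, enhancers and inside gene bodies. The exon comparison asks which bins took a larger or smaller share of the reads of their gene when either enzyme was depleted, whatever the change of the gene as a whole.

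The size of a change is given below as the fold in use, which is the bin's knockdown to parental ratio divided by that of its gene. A fold of 1 means that the bin followed its gene. A bin was called when the adjusted p-value in the authors' deposited table was under 0.05. The tables hold group values and no value per library, so bins carry no standard deviation. The spread between libraries is given through the deposited dispersion, whose square root is a coefficient of variation beyond counting noise. Over the inner bins tested its median was 11.2% in the Tet1kd comparison and 10.8% in the Tet2kd comparison. Group means of single bins were worked out from the bin mean, the gene ratio and the fold in use. A gene held from 1 to 105 of the bins, with a median of 17, and the basement membrane proteoglycan Hspg2 held the most. The parental mean of the genes ran from 5000 to 188638, with a median of 7657 and the chaperone Hsp90ab1 at the top.

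The bins stand for pieces of exons and not for whole exons. Among the lowest and highest bins of the 866 genes, 841 of 1732 (48.6%) had a mean under 20, so pieces of the first and last exon often carry inner numbers. In 473 of the 861 genes with a known strand the bin with the highest mean was itself one of the inner bins taken. Bin lengths are not in the tables, so levels are not compared between bins or genes. Just inside the limits of the rule lay the genes Psmb7 and Piezo1, with parental means of 5000.5 and 5001, and just outside lay Rps6ka1 and Faf1, at 4997 and 4999.9. On the bin mean, Ptbp1 bin E018 and Capza2 bin E014 were just inside, at 20.002 and 20.004, and Rbm39 bin E020 and Jarid2 bin E055 just outside, at 19.988 and 19.999.

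No p-value was given for 1252 of the bins in either of the authors' deposited tables. They belonged to 18 genes with 73 to 132 bins each, among them Flna, Dst, Macf1, Hspg2, Lama5, Dync1h1 and Atrx. The other 845 genes had at most 79 bins each and gave 15615 tested bins. These long genes, several of them of the cytoskeleton, the basement membrane or chromatin, are missing from every count of tested or called bins below. Counts of changed genes out of 863 include them.

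The targeted genes checked the labels. The mean of Tet1 in the authors' deposited tables went from 27235 in parental to 6860 in Tet1kd cells, and that of Tet2 from 7837 in parental to 3992 in Tet2kd cells. Tet1kd cells thus kept 25.2% of Tet1 (adjusted p = 1.19e-68) and Tet2kd cells 50.9% of Tet2 (adjusted p = 3.08e-30) in the authors' deposited tables. None of 8 embryonic stem cell markers was at 0, and their parental means ran from 3375 to 27922. Their sum was 103613 in parental and 131380 in Tet1kd cells, with Nanog, Sox2, Utf1 and Tdgf1 higher and the others not called. In the Tet2kd table it was 95143 in parental and 95309 in Tet2kd cells, with Sox2 higher and the others not called. None of 8 fibroblast markers was at 0 in any group either. Their sum was 5079 in parental and 3085 in Tet1kd cells. The proteoglycans Dcn and Lum fell most, to 7.71 and 0.414 in Tet1kd cells from 243 and 18.6 in parental cells. The more abundant Col1a1 and Col1a2 fell less, from 1632 to 1317 and from 960 to 748. Postn, Acta2 and Col3a1 were lower as well, and Thy1 was not called. In the Tet2kd table the sum was 4664 in parental and 5856 in Tet2kd cells, with Col1a1, Col1a2 and Acta2 higher, Col3a1 lower and the other 4 markers not called. Fewer cells of a type and less RNA per cell cannot be told apart in such bulk samples, and the part of feeder cells in the bin results was not tested.

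The calls among the inner bins of highly expressed genes are given beside those among all bins tested. In Tet1kd cells 1300 of 15615 tested bins (8.33%) were called, where 2.56% of all 195843 tested bins were. Use was higher for 544 of them (1.15% of all tested bins were called higher) and lower for 756 (1.41% of all tested bins were called lower). In Tet2kd cells 1330 bins (8.52%) were called, where 2.45% of all 193091 tested bins were. Use was higher for 518 (1.07% over all tested bins) and lower for 812 (1.38% over all tested bins). Among all tested bins that also had a mean of at least 20, 4.44% were called in Tet1kd and 4.36% in Tet2kd cells. At an unadjusted p under 0.05 the numbers of inner bins were 4054 and 4100 of 15615. The share over all tested bins at that limit was not counted, so nothing is read from these numbers. The 2 comparisons share the 4 parental libraries, so their values stand side by side below and are not counted as 2 pieces of evidence.

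The calls were spread over many genes. A called bin was found in 554 of the 845 tested genes in Tet1kd cells and in 558 in Tet2kd cells. Exactly 1 bin was called in 231 and 209 genes, and 5 or more were called in 63 and 57. Bins of both directions occurred together in 243 and 270 genes. A gene held a median of 17 inner bins, and a gene with more or deeper bins has more chances of a call. The same counts were not made over other genes, so they are not read as a trait of these.

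The ends of the same genes were called in the other direction by count. These end bins were the lowest and highest bins that also had a mean of at least 20. Of those tested, 21.2% were called in Tet1kd cells (187 of 884), with 162 higher and 25 lower. In Tet2kd cells 22.6% were called (200 of 884), with 179 higher and 21 lower. Of the called inner bins 58.2% were lower in Tet1kd and 61.1% in Tet2kd cells. End bins were far deeper, with median means of 1038 and 955 against 190 and 178 for the inner bins. Inner bins with a mean of 1000 and above were called in 19.9% and 25.4% of cases. Those calls were 128 higher and 115 lower in Tet1kd and 177 higher and 110 lower in Tet2kd cells. End and inner bins were not matched in depth, so the gap in share is not read as a trait of gene ends. Inner bins of moderately expressed genes, with a parental mean from 500 to 5000, were called in 3.01% and 3.05% of cases, and 60.6% and 65.0% of those calls were lower. Use is relative within a gene, so a higher share of end bins and a lower share of inner bins are not independent.

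**Figure D1:**
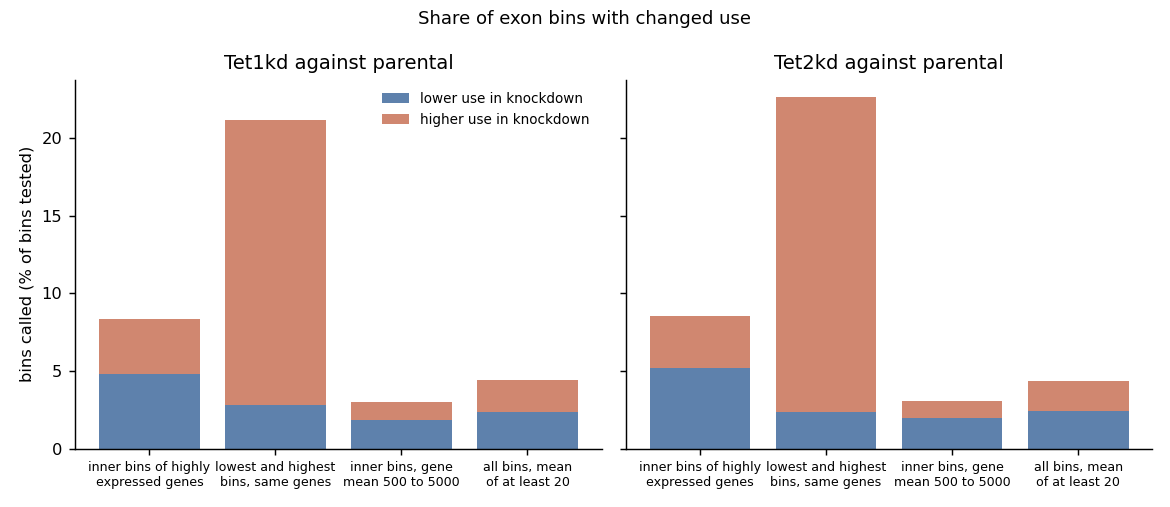
Share of tested exon bins called (percent) in each class of bins, for Tet1kd (left) and Tet2kd (right) against parental cells, split into lower use (blue) and higher use (orange). Inner bins of highly expressed genes reach 8.33% and 8.52% with more lower than higher calls, and the end bins of the same genes 21.2% and 22.6% with mostly higher calls. All classes hold bins with a mean of at least 20, and they were not matched in depth.

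Most called changes were small. The median absolute log2 ratio of the called bins, on the deposited scale, was 0.20 in Tet1kd and 0.19 in Tet2kd cells. On that scale 0.25 is a 1.41-fold and 0.5 a 2-fold change in use, as the check under the processing notes shows. A 2-fold change was reached by 66 called bins of 52 genes in Tet1kd cells, with 34 higher and 32 lower. In Tet2kd cells it was reached by 54 called bins of 46 genes, with 12 higher and 42 lower. These were mostly thin bins, with a median mean of 44.0 and 40.7 normalized counts. With a mean of at least 100 there were 9 such bins in Tet1kd cells (5 higher, 4 lower) and 8 in Tet2kd cells (1 higher, 7 lower).

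The share of bins called rose with read depth. In Tet1kd cells the share called rose from 2.74% of bins with a mean of 20 to 50 to 19.9% of bins at 1000 and above. In Tet2kd cells it rose from 2.39% to 25.4% over the same range. The median absolute log2 ratio of the called bins, on the deposited scale, fell meanwhile from 0.55 to 0.10 and from 0.53 to 0.09. Inner bins of moderately expressed genes were set beside them by class of bin mean, which does not match depth within a class. Between means of 200 and 500 the shares were 9.85% against 6.17% in Tet1kd cells and 10.5% against 7.27% in Tet2kd cells. At 1000 and above, a class with no upper limit, they were 19.9% against 9.15% and 25.4% against 12.3%. No test of these differences was made, because bins of 1 gene share its libraries and its total.

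**Figure D2:**
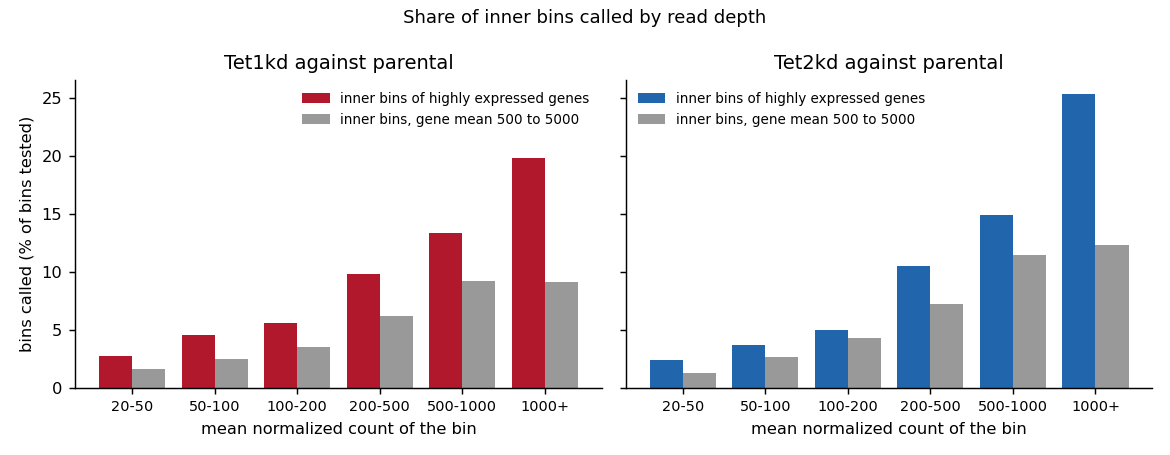
Share of tested inner bins called (percent) by the mean normalized read count of the bin, for highly expressed genes (coloured) and genes with a parental mean from 500 to 5000 (grey), in Tet1kd (left) and Tet2kd (right) cells. The share climbs with depth in both sets, and the coloured bar is the taller one in each depth class.

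Use shifted along the gene, from lower at the 5' side to higher at the 3' side. Bins were placed by their number, read in the direction of the gene's strand, and each gene was divided into 10 segments with equal ranges of bin numbers. In Tet1kd cells the median fold in use of tested inner bins was 0.953 in segment 1 at the 5' end (676 bins) and 1.04 in segment 10 at the 3' end (1488 bins). In Tet2kd cells it was 0.927 and 1.06. The quartiles of segment 1 were 0.849 and 1.08 in Tet1kd and 0.819 and 1.04 in Tet2kd cells, so single bins spread far more widely than the medians shifted. Inner bins of moderately expressed genes went from 0.946 to 1.04 in Tet1kd and from 0.945 to 1.04 in Tet2kd cells. A shift of about this size was thus also seen outside the highly expressed genes.

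**Figure D3:**
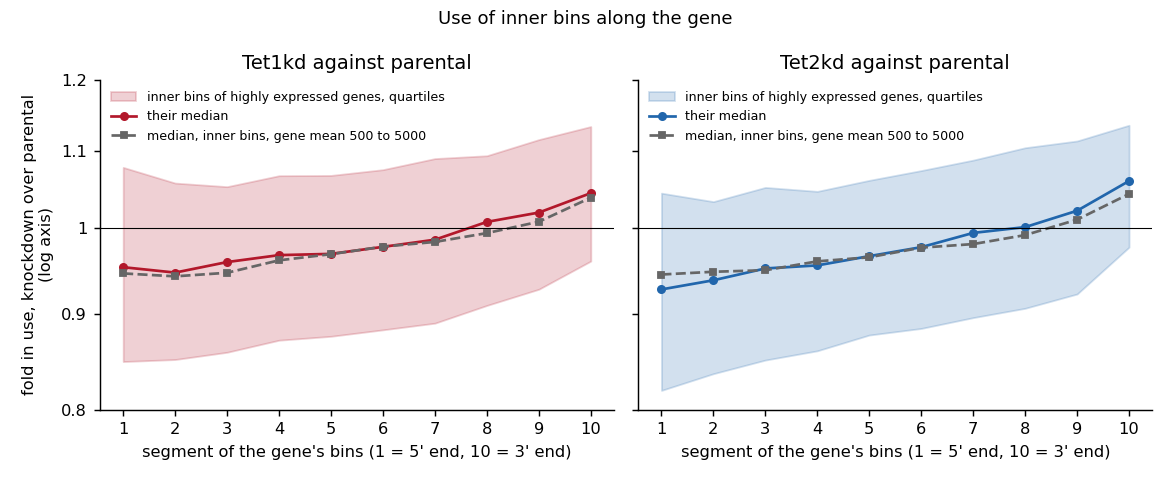
Fold in use (knockdown over parental, log axis) of tested inner bins by segment of the gene, from the 5' end (1) to the 3' end (10), for Tet1kd (left) and Tet2kd (right). Lines with circles are medians and bands are quartiles over the bins of highly expressed genes, and grey squares are medians for genes with a parental mean from 500 to 5000. The medians climb from 0.953 to 1.04 and from 0.927 to 1.06.

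The calls followed the same course. In segments 1 to 5, 566 of 6829 tested bins (8.29%) were called in Tet1kd cells, 149 higher and 417 lower. In Tet2kd cells 540 of these 6829 bins (7.91%) were called, 82 higher and 458 lower. In segment 10, 176 of 1488 tested bins (11.8%) were called in Tet1kd cells, 152 higher and 24 lower. In Tet2kd cells 222 of these 1488 bins (14.9%) were called, 195 higher and 27 lower. Segments 6 to 9 lay between in direction. They held 243 higher and 315 lower calls in Tet1kd cells and 239 higher and 327 lower in Tet2kd cells. Of their 7276 tested bins 7.67% and 7.78% were called. In moderately expressed genes segment 10 held 203 higher and 63 lower calls in Tet1kd and 209 higher and 50 lower in Tet2kd cells. Over the inner bins of highly expressed genes the median bin mean rose from 109 in segment 1 to 343 in segment 10 in the Tet1kd comparison. In the Tet2kd comparison it rose from 99.8 to 325. Among the 722 genes with at least 3 inner bins on each side of the midpoint, the 3' side had the higher median use in 461 (63.9%) in Tet1kd and in 520 (72.0%) in Tet2kd cells. The median difference between the sides was 1.04-fold and 1.06-fold. RNA integrity of the libraries is not in the tables, and its part in this shift was not tested.

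**Figure D4:**
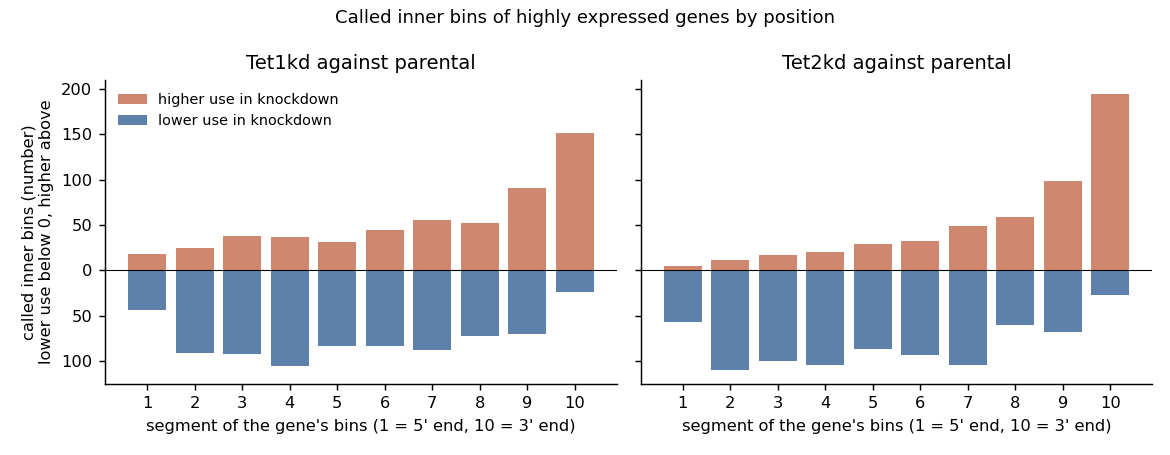
Number of called inner bins of highly expressed genes by segment of the gene (1 at the 5' end, 10 at the 3' end), with higher use above 0 and lower use below 0, for Tet1kd (left) and Tet2kd (right). Lower calls outnumber higher calls in segments 1 to 5, and segment 10 holds 152 higher and 24 lower calls in Tet1kd and 195 higher and 27 lower calls in Tet2kd cells. Segments differ in depth and in the number of bins tested, 676 in segment 1 and 1488 in segment 10.

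By count, more of the genes themselves changed in Tet1kd than in Tet2kd cells. Of the 863 genes 459 (53.2%) changed in the authors' deposited table, 102 higher and 357 lower, where 30.4% of all genes tested did (15.2% higher and 15.3% lower). In Tet2kd cells 89 (10.3%) changed, 22 higher and 67 lower, where 7.14% of all genes tested did (3.85% higher and 3.29% lower). The second test in the authors' deposited table called 688 of the genes (79.7%) in Tet1kd and 471 (54.6%) in Tet2kd cells. Genes were chosen for a high parental mean, which can favour a fall against that group, so nothing is read from these directions. Calls of bins did not keep to the genes that changed. In Tet1kd cells 8.44% of the inner bins were called in genes that did not pass the gene test, 8.86% in genes that rose and 8.04% in genes that fell. In Tet2kd cells the shares were 8.45%, 11.6% and 8.42%, with 327 bins in the genes that rose.

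Tet1 (ENSMUSG00000047146, chromosome 10, minus strand) held 21 of the inner bins, and 5 were called in its own knockdown. The 2 called bins that lost most use lay near the 5' side. Bin E022 of 27 went from a worked-out mean of 2254 in parental to 282 in Tet1kd cells, a fold in use of 0.498 (adjusted p listed as 0 in the authors' deposited table). Bin E021 went from 1663 to 248, a fold in use of 0.592 (adjusted p = 1.3e-11 in the authors' deposited table). Bin E025, nearer still to the 5' end, stood at 0.837. At the 3' side bin E002, the deepest of these bins, went from 15202 to 4756 at a fold in use of 1.24, and bin E004 stood at 1.23. Reads thus fell in all of these bins, by more at the 5' side than at the 3' side. In Tet2kd cells 5 bins of Tet1 were also called, with E002 at 1.12, E003 at 1.28, E022 at 0.906, E025 at 0.904 and the thinner E008 at 0.492.

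Tet2 (ENSMUSG00000040943, chromosome 3, minus strand) held 9 inner bins, of which 1 was called in its own knockdown. Bin E012 of 15, on the 5' side, went from a worked-out mean of 2560 in parental to 1052 in Tet2kd cells, at a fold in use of 0.807 (adjusted p listed as 0 in the authors' deposited table). Bin E002 on the 3' side went from 1954 to 1065 at a fold of 1.07 that was not called. In Tet1kd cells the 1 called bin was the thinner E006, at a fold of 0.677. The sites that the hairpins match are not in the sources used here.

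The largest losses and gains of use in Tet1kd cells are given for called bins with a mean of at least 100, with 1 bin a gene, the one with its smallest p. Bin E010 of Sptbn1, which encodes a beta spectrin of the membrane skeleton, went from 192 to 78.4 worked-out counts, a fold in use of 0.448 (coefficient of variation 11.5%). The same bin stood at 1.23 in Tet2kd cells and was not called there. Bin E004 of G3bp1, an RNA-binding protein of stress granules, went from 241 to 83.4 at a fold of 0.480, and stood at 1.00 in Tet2kd cells. Bin E004 of Nsd1, a histone H3 lysine methyltransferase, went from 325 to 202 at a fold of 0.527 while the gene's mean was higher in Tet1kd than in parental cells. In Tet2kd cells it stood at 0.876 and was not called. Whether the 2 knockdowns differ in these bins was not tested.

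The other 2 of the 5 largest losses by these limits were lower in each comparison. Larger losses in another bin of a gene are left out by these limits, such as Tet1 bin E022 at 0.498 in Tet1kd cells. Bin E014 of Sec31a, a coat protein of COPII transport vesicles, had a fold in use of 0.549 in Tet1kd cells, from 960 to 476 worked-out counts, and of 0.619 in Tet2kd cells, from 868 to 525. Bin E036 of Prrc2a, an RNA-binding protein, had 0.535 and 0.592, with a wide spread between libraries (coefficients of variation 18.2% and 19.3%). Both bins were called in both comparisons.

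The 5 largest gains by these limits, all in bins with a mean under 200, were as follows. Bin E029 of Tsc22d1, a leucine zipper transcriptional regulator, went from 74.4 to 164 worked-out counts while the gene fell from 22023 to 15126, which makes a fold in use of 3.20. Bin E009 of Mtf2, an accessory subunit of Polycomb repressive complex 2, went from 161 to 212 at a fold of 2.05, and stood at 1.04 without a call in Tet2kd cells. Bin E012 of Son, a protein of nuclear speckles needed for splicing, had 2.01 in Tet1kd and 1.70 in Tet2kd cells. Bin E010 of Mrpl20, a protein of the mitochondrial ribosome, had 1.98 in Tet1kd and 2.09 in Tet2kd cells. Bin E031 of Myo10, a filopodial myosin, had 1.94 in Tet1kd cells and 1.08 without a call in Tet2kd cells. In Tsc22d1, Mtf2, Son and Mrpl20 the gene itself fell in Tet1kd cells.

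Of the called bins in Tet1kd cells, 23 shared an adjusted p listed as 0 in the authors' deposited table, deep and thin bins alike, and those named next are the deepest of them with 1 bin a gene. After Tet1 bin E002, these were Hsp90ab1 bin E008 at a fold in use of 0.842, Slc25a36 bin E002 at 0.758, Pkm bin E013 at 1.17 and Polr2a bin E002 at 1.20. Then came Eef1b2 bin E006 at 1.23, Mkrn1 bin E015 at 0.647, Urb2 bin E012 at 1.29, Slc2a3 bin E014 at 1.33 and Fasn bin E039 at 0.713. Coefficients of variation were at most 6.46% in these bins. Mkrn1 codes for a ubiquitin ligase, and its bin E015 in the middle of the gene went from 2199 to 1114 worked-out counts in Tet1kd cells. In Tet2kd cells that bin went from 2041 to 1764, at 0.925 without a call. Of Slc25a36, a mitochondrial nucleotide carrier, the called bin E002 lay at the 3' end and fell while 4 other inner bins rose in use. Actb, Hsp90ab1, Eef1b2, Tubb5, the ribosomal protein genes and several hnRNP genes have near-identical copies elsewhere in the mouse genome, and the labels do not say how reads were shared between copies, so their bins are uncertain.

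Genes with the most called bins showed blocks of high and low use. Tsc22d1 had 12 called bins in Tet1kd cells out of 22. The 9 higher ones (E005 to E029) had folds from 1.55 to 3.20, and the 3 lower ones (E041, E042, E045) lay nearer the 3' end, were far deeper and had 0.827, 0.691 and 0.918. Tsc22d1 is known to make a long and a short protein from different starts. In Tet2kd cells E029 stood at 1.66, E042 at 0.870 and E045 at 1.07, and no other inner bin of the gene was called. Trim28, the corepressor that binds KRAB zinc finger proteins, had 11 called bins in Tet1kd cells (6 higher, 5 lower), with E019, E020 and E021 at 0.684, 0.727 and 0.559. In Tet2kd cells those 3 bins stood at 0.973, 0.948 and 0.875 and were not called. Bag6, a chaperone of protein quality control, had 10 (3 higher, 7 lower), with folds from 0.479 to 1.68. Actb had 8 (4 higher, 4 lower) and the matrix protein gene Fn1 8 (4 higher, 4 lower). In Fn1 the higher bins E003, E004, E011 and E023 lay on the 3' side at 1.06 to 1.23, and the lower bins E025, E037, E046 and E047 lay towards the 5' side at 0.720 to 0.817.

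**Figure D5:**
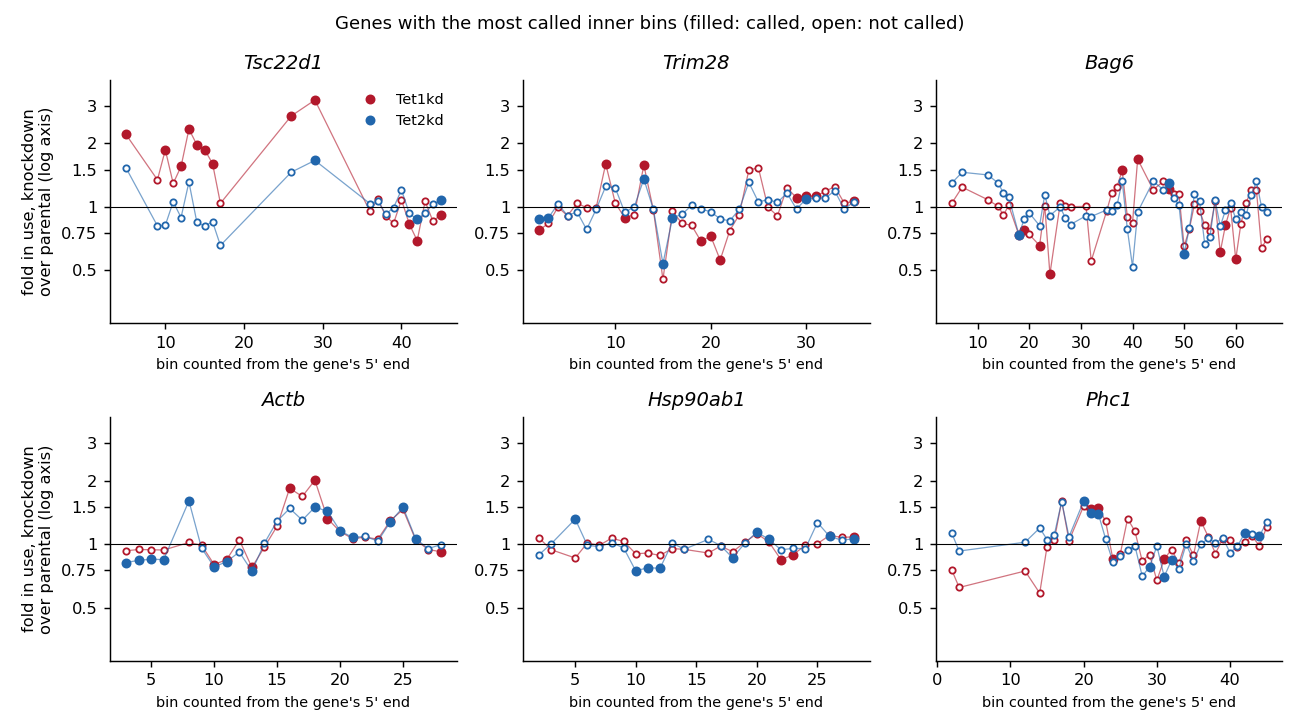
Fold in use (knockdown over parental, log axis) of the inner bins of 6 genes with many called bins, by bin counted from the gene's 5' end, in Tet1kd (red) and Tet2kd (blue) cells. Filled points are called bins. Tsc22d1 has 9 filled red points above 1, up to 3.20, and the blue points of Actb lie mostly below 1 at the 5' side and above 1 nearer the 3' end.

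The largest losses in Tet2kd cells are given by the same limits, a mean of at least 100 and 1 bin a gene, the one with its smallest p. Bin E006 of Fasn, the fatty acid synthase, went from 529 to 166 worked-out counts at a fold in use of 0.341, while the gene did not pass its test (adjusted p = 0.85 in the authors' deposited table). The same bin in Tet1kd cells stood at 0.538 and was not called, with a coefficient of variation of 50.7% there against 16.6% in the Tet2kd comparison. Bin E010 of Sec24c, a cargo adaptor of COPII vesicles, went from 236 to 85.6 at a fold of 0.401. Bin E006 of Fblim1, a filamin-binding LIM protein of cell adhesions, had 0.414 and also fell in Tet1kd cells, at 0.621. Bin E004 of Nol11, a factor of ribosomal RNA processing, had 0.417. Bin E005 of Uqcrc2, a core subunit of respiratory complex III, went from 398 to 168 at 0.449. The Tet1kd values of the bins of Sec24c, Nol11 and Uqcrc2 were 0.740, 0.664 and 0.722 without a call, with coefficients of variation of 30.7%, 24.5% and 18.4%.

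The largest gains in Tet2kd cells ran from 1.60 to 2.09 by the same limits. After Mrpl20 bin E010, bin E059 of Eif4g1, the scaffold of the cap-binding translation complex, went from 135 to 221 worked-out counts at a fold of 1.88, and stood at 1.02 in Tet1kd cells without a call. Bin E003 of Ankrd17, an ankyrin repeat protein, had 1.84 in Tet2kd and 1.53 in Tet1kd cells, and was called in both. Bin E003 of Cul4b, a scaffold of ubiquitin ligases, went from 209 to 375 at 1.60 and stood at 1.05 without a call in Tet1kd cells.

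In Tet2kd cells 40 called bins shared an adjusted p listed as 0 in the authors' deposited table. The deepest of them with 1 bin a gene were, after Tet1 bin E002, Hsp90ab1 bin E018 at 0.767, Actb bin E006 at 1.28, Tubb5 bin E005 at 1.22 and Hsp90aa1 bin E018 at 0.737. They were followed by Rbbp4 bin E012 at 0.773, Tet2 bin E012, Ppm1a bin E004 at 0.806, Msh6 bin E002 at 0.714 and Uba1 bin E025 at 0.629. Rbbp4 encodes a histone-binding subunit of several chromatin complexes, and its bin stood at 0.812 in Tet1kd cells without a call. Uba1, the ubiquitin-activating enzyme, had its bin E025 at 1611 worked-out counts in parental and 989 in Tet2kd cells. In the Tet1kd comparison that bin had 1785 and 1061, at a fold of 0.701 that was also called.

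Actb had 15 called bins of 25 in Tet2kd cells, 8 higher and 7 lower. The lower ones lay on the 5' side, with E024 to E027 at 0.818 to 0.847 and E017, E019 and E020 at 0.744, 0.825 and 0.780. The higher ones were 7 bins from E004 to E012 on the 3' side, at 1.06 to 1.50, and E022, a thin bin among the lower ones, at 1.60. Hsp90ab1 had 9 called bins (5 higher, 4 lower). Phc1, a subunit of Polycomb repressive complex 1, had 8 (5 higher, 3 lower), with E017 at 0.701 in Tet2kd and 0.849 in Tet1kd cells. Fasn had 8 as well (4 higher, 4 lower).

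Gene lists were set beside the 8.33% and 8.52% called over all tested inner bins, beginning with regulators of splicing. The share called rose with depth, and the lists were not matched to all inner bins in depth. A higher or lower share is therefore not read as a trait of a list. Of 80 tested bins of 6 SR protein and TRA2 genes, 16 (20%) were called in Tet1kd cells (6 higher, 10 lower) and 13 (16.3%) in Tet2kd cells (6 higher, 7 lower). Bin E036 of Srsf11 went from 529 to 568 worked-out counts in Tet1kd cells at a fold of 1.63, while the gene fell, and had 1.35 in Tet2kd cells. Srsf3 bin E013 had 0.856 and 0.877 and was called in both comparisons, and Srsf7 bin E005 had 0.843 in Tet1kd cells. Of 248 bins of 12 hnRNP genes, 42 (16.9%) were called in Tet1kd cells (20 higher, 22 lower) and 31 (12.5%) in Tet2kd cells (9 higher, 22 lower). Hnrnph1 bin E030 had 0.611 in Tet1kd and 0.565 in Tet2kd cells, where it went from 442 to 239. Hnrnpab bin E006 had 1.40 and Hnrnpa2b1 bin E002 had 0.659 in Tet1kd cells. In Tet2kd cells those 2 bins stood at 1.11 and 1.01 without a call. The median deposited log2 ratio of each of the 14 lists lay between -0.024 and 0.017, where it was -0.01 over all tested inner bins in either comparison. Of the 18 SR, TRA2 and hnRNP genes, 10 were lower and 1 was higher as genes in Tet1kd cells, and none was called in Tet2kd cells. Over all 863 genes 53.2% were called in Tet1kd cells, 357 lower and 102 higher, and 10.3% in Tet2kd cells.

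Core spliceosome genes and genes known for alternative inner exons were counted next. Of 516 bins of 20 such genes, 52 were called in Tet1kd cells (24 higher, 28 lower) and 56 in Tet2kd cells (23 higher, 33 lower), which is 10.1% and 10.9%. Prpf8, the central protein of the spliceosome's catalytic core, had bin E034 at 0.679 in Tet2kd cells, from 1126 to 714. In Tet1kd cells that bin stood at 0.752 without a call, with coefficients of variation of 15.9% there and 5.49% in the Tet2kd comparison. Sf3b3, part of the U2 particle, had bin E002 at its 3' end at 1.18 in Tet1kd and 1.10 in Tet2kd cells. Rbm39, a U2AF-related splicing factor, had bin E054 at 1.91 in Tet1kd cells and 8 called bins there. Of 391 tested bins of genes known for alternative inner exons, 47 (12.0%) were called in Tet1kd (23 higher, 24 lower) and 44 (11.3%) in Tet2kd cells (20 higher, 24 lower). Besides Sec31a and Pkm, the muscle-type pyruvate kinase with its E013 next to the last bin number, this list named the histone chaperone Nasp. Nasp bin E007 had 0.806 in Tet1kd and 0.741 in Tet2kd cells. Which bins are the known alternative exons could not be told without bin positions.

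Translation factor genes had more calls in Tet2kd than in Tet1kd cells by count, a difference that was not tested. Of 269 bins of 17 translation factor genes, 34 (12.6%) were called in Tet1kd (9 higher, 25 lower) and 45 (16.7%) in Tet2kd cells (19 higher, 26 lower). Eif2s2 bin E013 had 1.52 in Tet1kd cells and Eif3e bin E004 had 0.826 in Tet2kd cells. Only 7 ribosomal protein genes met the rule, with 61 bins, of which 6 and 5 were called. Rps9 bin E013 had 0.875 and 0.833, and Rpl4 bin E007 had 1.09 in Tet2kd cells. Of 346 chaperone bins of 19 genes, 26 (7.51%) were called in Tet1kd (8 higher, 18 lower) and 44 (12.7%) in Tet2kd cells (16 higher, 28 lower). Hspa5, the endoplasmic reticulum chaperone BiP, had bin E019 at 0.643 in Tet1kd cells, from 624 to 264.

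Among metabolic and structural genes the shares were mixed. Of 114 glycolysis bins of 7 genes, 17 (14.9%) were called in Tet1kd (8 higher, 9 lower) and 12 (10.5%) in Tet2kd cells (8 higher, 4 lower). Slc2a3, a glucose transporter, had bin E014 at 1.33 and 1.23, and Aldoa bin E020 had 1.70 in Tet1kd cells. Of 340 tested cytoskeleton bins, 27 (7.94%) were called in Tet1kd (11 higher, 16 lower) and 37 (10.9%) in Tet2kd cells (16 higher, 21 lower), and 15 of the latter were Actb. Sptbn1 bin E002 at the 3' end had 1.24 and 1.23. Of 229 tested bins of extracellular matrix genes, 18 (7.86%) were called in Tet1kd (9 higher, 9 lower) and 21 (9.17%) in Tet2kd cells (7 higher, 14 lower). Nid1, which links laminin to collagen in basement membranes, had bin E019 at 0.515 in Tet2kd cells, from 959 to 449. In Tet1kd cells that bin stood at 0.783 without a call (coefficient of variation 27.8%). Sparc bin E005 had 0.864 and 0.711. Fibroblasts also express the matrix genes, and their markers moved as given above.

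Chromatin, pluripotency and replication genes completed the lists. Of 168 bins of 8 genes of DNA methylation and its oxidation, 22 (13.1%) were called in Tet1kd (8 higher, 14 lower) and 22 (13.1%) in Tet2kd cells (6 higher, 16 lower). This list holds the targeted genes, and in each comparison 5 of the calls were in Tet1 and 1 in Tet2. Dnmt3l, the cofactor of the de novo methyltransferases, had bin E011 at 0.665 in Tet1kd and 0.660 in Tet2kd cells. Of 643 tested bins of chromatin remodelers and modifiers, 57 (8.86%) were called in Tet1kd (27 higher, 30 lower) and 70 (10.9%) in Tet2kd cells (26 higher, 44 lower). Jarid2, a subunit of Polycomb repressive complex 2, had bin E018 at 0.635 and 0.687. Of 119 bins of 16 pluripotency genes, 12 (10.1%) were called in Tet1kd (4 higher, 8 lower) and 17 (14.3%) in Tet2kd cells (7 higher, 10 lower). Pou5f1, which encodes Oct4, had bin E012 at 0.835 in Tet2kd cells, from 3372 to 2559. Sox2 bin E008 had 1.08 in Tet2kd cells and Mybl2 bin E009 had 0.775 in Tet1kd cells. Of 224 replication bins, 20 (8.93%) were called in Tet1kd (3 higher, 17 lower) and 24 (10.7%) in Tet2kd cells (8 higher, 16 lower). The DNA ligase gene Lig1 had bin E038 at 0.614 and the helicase gene Mcm6 bin E005 at 0.822 in Tet2kd cells. In Tet1kd cells these bins stood at 0.696 (coefficient of variation 34.1%) and 1.00 without a call. The ribonucleotide reductase gene Rrm2 had bin E006 at 0.708 in Tet1kd and 0.746 in Tet2kd cells. The lists were chosen with earlier results of these data known, and no count among them was tested against other bins.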

How the data were processed

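Per the submitters' processing notes, the authors aligned SOLiD reads with TopHat2 2.0.0, used SAMtools 0.1.18 and DESeq (no version given), and worked on mm9 and NCBIM37. The counting step, its use of strand, the annotation release and the model terms were not given in the sources used here. Gene tables deposited by the authors hold the mean signal (normalized read count) of either group, their ratio (fold) and log2 ratio, and the p-values and adjusted p-values of 2 tests, per the file headers. The deposited exon tables hold, per the file headers, a mean signal, a log2 ratio, a p-value, an adjusted p-value and a dispersion score for each bin. Read totals per library are not in them.

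The members, gene lists and rule for named genes were chosen with earlier results of these data known. Python 3.11.15 with pandas 2.3.3 and numpy 2.4.6 read the tables, and the deposited adjusted p-values were those of a Benjamini-Hochberg adjustment over all tested bins. The log2 ratio was turned so that positive means higher use in the knockdown. Its scale was checked by working out each bin's parental mean from both comparisons. The 2 means differed least when the deposited ratio was multiplied by 2 (median absolute deviation 0.0123, against 0.103 unmultiplied, over 1659 bins). The fold in use is therefore 2 to the power of 2 times the deposited log2 ratio. At this factor the means of the 15615 tested bins differed by a median of 0.663%, after a common shift of 9.04%.

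Symbols and strand came from a GENCODE M21 table by gene identifier and matched 861 of 863 genes. Because its build differs, no coordinates were taken from it. The bin with the highest mean had a number above the gene's midpoint in 90.8% of plus-strand and 8.10% of minus-strand genes, so numbers ascend with genome position. Named bins were, in each knockdown and with 1 called bin a gene, the 10 with the smallest p, the 5 largest changes in each direction at a mean of at least 100, and the 5 genes with the most called bins. Up to 3 genes of each list and the targeted genes were added, and further bins of genes with many calls were named after their values were seen. Some bins that this rule names are not reported here. The check of the ratio's scale and the p-value adjustment were tested on simulated data, and the counts were not. The planned fits with edgeR or DESeq2 were not run, since the tables give group means.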

Additional observations from a re-analysis of the deposited data

How the results depend on the processing

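In Tet1kd cells the share of inner bins called moved from 8.33% to 4.59% at an adjusted p of 0.01, to 0.423% when a deposited log2 ratio of at least 0.5 was also asked for, and to 5.52% with genes from a parental mean of 2000. In Tet2kd cells it moved from 8.52% to 4.93% and 0.346% under the first 2 of these. The 12 other alternatives in Tet1kd cells gave 7.15% to 11.5%, and the 13 others in Tet2kd cells 5.75% to 11.9%. The 5.75% in Tet2kd cells also came with genes from a parental mean of 2000, so the share fell at that limit in both comparisons. The lower share of calls was 58.2% and 61.1%, but 48.5% and 77.8% among 2-fold changes in use, and 68.0% and 73.4% in bins from 0.25 to 0.75 of the way along the gene, an alternative chosen after seeing the data. The rise of median use from segment 1 to segment 10, on the deposited log2 scale, was 0.05 to 0.08 in Tet1kd and 0.08 to 0.10 in Tet2kd cells over 9 alternatives, also chosen after seeing the data. The share of the genes that changed moved from 53.2% to 3.24% at 2-fold in Tet1kd cells. In Tet2kd cells it moved from 10.3% to 54.6% under the second deposited test, to 5.56% at an adjusted p of 0.01 and to 0 at 2-fold. The cause of the gap between the 2 deposited tests was not tested. Of 84 calls of named bins, 4 were lost at 0.01. Most of these bins were checked only in the comparison that named them, so other calls given above are not among the 84. Some of those would also be lost, such as Prrc2a bin E036 and Rps9 bin E013 in Tet2kd cells (deposited adjusted p = 0.0133 and 0.0202). Thin bins limit what can be called: at a mean of 20 to 50 the called bins had a median absolute log2 ratio of 0.55 and 0.53, on the deposited scale. Leaving out libraries and the planned count models were not run. No paired analysis was possible because the tables hold group values and no columns of single libraries.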

Other observations

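Calls in neighbouring bins were counted. Of 12905 pairs of tested inner bins with adjacent numbers, both were called in 213 in Tet1kd cells, 191 of them in 1 direction, and in 198 in Tet2kd cells, 164 of them in 1 direction. A called neighbour was found for 390 (30.0%) of the called bins in Tet1kd and for 359 (27.0%) in Tet2kd cells. Over all tested inner bins, called or not, the shares were 12.9% (2015 bins) and 13.2% (2055 bins), and the difference was not tested. In Hsp90ab1 the run E018, E019 and E020 had folds in use of 0.767, 0.774 and 0.745 in Tet2kd cells and went from 7313 to 4702, 8802 to 5709 and 8774 to 5485 worked-out counts. The same 3 bins in Tet1kd cells stood at 0.883, 0.907 and 0.900 and were not called. In Phc1 the thin bins E026, E027 and E028 had 1.39, 1.40 and 1.60 in Tet2kd cells. The labels do not say whether 1 read across 2 adjacent bins was counted in each, so neighbours are not independent.

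Mtf2 and Dnmt3l, which act in Polycomb repression and DNA methylation, each combined gains in thin 5' bins with losses in deeper bins in Tet1kd cells. The Mtf2 bins E007, E009, E011 and E012 had folds of 1.70, 2.05, 2.43 and 2.33, and the deeper E025 and E029 had 0.775 and 0.776. In Dnmt3l bin E005 had 2.06 and E011 had 0.665. These bins were picked after their values were seen.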
